A study of Homo sapiens with 8 samples.

Results

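The genes described here are 8 kallikreins of stratified epithelium, KLK5, KLK6, KLK7, KLK8, KLK10, KLK11, KLK12 and KLK13, and 2 inhibitors, SPINK5 and SPINK7. They are 10 of the 63241 gene rows in the deposited table, matched by Ensembl identifier, and they were selected on their CPM in these same 8 libraries (CPM are counts scaled to a common library total). Their levels and the difference between labels are therefore a description, which gives the choice no independent support. By their labels, all 8 libraries came from HSC3, a human oral squamous cell carcinoma line, transfected with a lipid reagent and 100 pmol of siRNA and collected after 48 hours. The siRNA was si-Col1a1, against the type I collagen chain COL1A1, in 4 libraries (called knockdown 1 to 4) and the non-targeting si-NC in the other 4 (control 1 to 4). All 8 share the 1 line by label. Separate cultures are not mentioned, and a p-value here reflects nothing beyond the scatter among the 8 libraries, which may be technical.

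Kallikreins are secreted serine proteases made as inactive precursors. In the outer layers of squamous epithelium they cut the desmosomal and corneodesmosomal proteins that hold cells together, and so control the shedding of surface cells. KLK5 and KLK7 are the best known of these, and KLK5 can activate other kallikreins. SPINK5 encodes LEKTI, a multidomain Kazal-type inhibitor that is cut into fragments which block KLK5, KLK7 and KLK14, and its loss causes Netherton syndrome, a disease of excessive shedding. SPINK7 encodes a small single-domain inhibitor of the same family, known from the squamous epithelium of the oesophagus.

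The libraries differed widely in markers of other tissues. Total counts ran from 30684584 to 61795990. COL1A1 stood at 368, 123, 301 and 155 CPM in knockdown 1 to 4 and at 89.0, 8183, 476 and 690 CPM in control 1 to 4, and control 1 was below every knockdown library (log2 fold change -2.97, SE 1.30, edgeR adjusted p = 0.981). The collagen genes COL1A2 and COL3A1, not named as siRNA targets, stood at -2.81 (SE 0.964) and -2.79 (SE 1.08), each at edgeR adjusted p = 0.981. The lower fitted value was thus not particular to COL1A1. A list of 12 skeletal muscle markers took 14.6% and 14.7% of counts in control 1 and control 3, 4.67% in knockdown 4, 3.77% in knockdown 2, and 0.4% or less elsewhere. A list of 14 salivary gland markers took 9.85% of counts in knockdown 2 and 8.61% in control 1, and no more than 0.000886% in the other 6, with every gene of both lists detected in at least 1 library. Most of the share in control 1 was LCN1, at 66020 of 86090 CPM, and AMY1A held at most 16 counts in any library. The basal keratin KRT5 stood at 109 CPM in control 1 and 274 CPM in knockdown 2, against 5833 to 19770 CPM in the other 6. In bulk RNA, fewer squamous cells and less RNA per cell cannot be told apart, and the part of these other tissues in the values below was not tested. The muscle and gland transcripts go against the label of a squamous carcinoma line, and what the samples are was not settled here. Because COL1A1 goes against the label of control 1, knockdown and control name the labels only, and a library called knockdown 1 is the library so labelled.

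In GENCODE 29 (GRCh38) the 8 kallikreins lie in 1 cluster on the minus strand of chromosome 19, from KLK5 (chr19:50943303-50953093) to KLK13 (chr19:51056206-51065114). Both inhibitors lie on the plus strand of chromosome 5, SPINK5 at chr5:148025683-148137289 and SPINK7 at chr5:148312419-148315922.

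RefSeq promoter sequences (GRCh38.p14, the patch release of hg38) were matched for 9 of the 10 genes by symbol, KLK8 having no entry. Of these, 4 are printed because KLK7 and KLK10 had the closest pattern over the 8 libraries of any pair of members, and SPINK5 and SPINK7 because each was the other's nearest member. Each line gives the 250 bases before the outermost start in the RefSeq table, 5′ to 3′ on the gene's strand: chr19:50984065-50984314 on the minus strand for KLK7, chr19:51019862-51020111 on the minus strand for KLK10, chr5:148063730-148063979 on the plus strand for SPINK5, chr5:148312173-148312422 on the plus strand for SPINK7. Capitals mark matches, on either strand, to the TATA box TATAAA, the Sp1-type GC box motif GGGCGG, or the grainyhead-type motif AACNNGTT. The AP-1-type motif TGANTCA was also searched.
KLK7: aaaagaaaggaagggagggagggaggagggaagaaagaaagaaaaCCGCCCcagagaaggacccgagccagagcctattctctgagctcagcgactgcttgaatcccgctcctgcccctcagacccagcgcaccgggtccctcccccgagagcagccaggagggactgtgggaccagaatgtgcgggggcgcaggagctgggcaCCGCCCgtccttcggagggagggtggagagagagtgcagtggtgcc
KLK10: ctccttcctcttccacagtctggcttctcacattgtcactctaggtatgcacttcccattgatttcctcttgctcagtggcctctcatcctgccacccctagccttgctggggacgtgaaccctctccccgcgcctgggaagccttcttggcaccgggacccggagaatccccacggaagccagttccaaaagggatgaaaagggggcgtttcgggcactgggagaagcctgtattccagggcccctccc
SPINK5: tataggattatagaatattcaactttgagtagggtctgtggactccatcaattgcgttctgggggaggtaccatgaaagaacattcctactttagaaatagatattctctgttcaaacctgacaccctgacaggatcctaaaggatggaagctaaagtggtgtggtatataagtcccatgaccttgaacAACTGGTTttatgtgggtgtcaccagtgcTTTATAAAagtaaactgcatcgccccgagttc
SPINK7: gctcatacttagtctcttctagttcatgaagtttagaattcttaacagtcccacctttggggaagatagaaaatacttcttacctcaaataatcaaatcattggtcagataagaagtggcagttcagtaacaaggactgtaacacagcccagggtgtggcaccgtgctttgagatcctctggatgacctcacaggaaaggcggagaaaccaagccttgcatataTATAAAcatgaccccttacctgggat
The 2 inhibitor promoters both held TATAAA on the gene's strand, starting 30 bases before the annotated start in SPINK5 and 26 bases before it in SPINK7, and in SPINK5 it overlaps a match on the other strand. The SPINK5 window lies within the gene span given above, because a GENCODE 29 transcript starts upstream of the RefSeq start. None of the 7 kallikrein promoters held TATAAA in the 300 bases searched (250 before the start and 50 from it on), and 11.5% of all 35116 RefSeq promoters of that length did. At the outermost starts, GGGCGG stood in 3 of the 7, KLK6, KLK7 and KLK13, and in 0 of the 2 inhibitor promoters. It stood in 45% of all promoters, which include every listed start of a gene. KLK11 held it only at an inner RefSeq start. TGANTCA stood in none of the 9 (7.71% of all), and AACNNGTT only in SPINK5 (3.52% of all). GC content was 43.7% and 44% for SPINK5 and SPINK7, and from 55.3% to 66.7% for the kallikreins, with a median of 58.7% over all promoters. These matches describe the letters in these windows and are not evidence of binding.

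KLK5 (ENSG00000167754.13), the trypsin-like protease that starts the cascade in skin, stood at 274, 23.1, 101 and 11.3 CPM in knockdown 1 to 4 and at 1.69, 35.1, 5.40 and 149 CPM in control 1 to 4. KLK7 (ENSG00000169035.12), the chymotrypsin-like member that cuts corneodesmosin and desmocollin 1, stood at 402, 11.1, 568 and 125 CPM in knockdown and at 1.03, 36.5, 0.992 and 118 CPM in control. For both genes the highest library was labelled knockdown, the lowest was labelled control, and the groups overlapped. The ratio of KLK7 to KLK5 counts was 1.47, 0.48, 5.60 and 11.1 in knockdown 1 to 4 and 0.613, 1.04, 0.184 and 0.796 in control 1 to 4, so knockdown 3 and knockdown 4 were rich in KLK7 for their KLK5, and control 3 was poor in it.

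KLK10 (ENSG00000129451.12), a kallikrein common in squamous epithelium, stood at 307, 7.72, 417 and 145 CPM in knockdown 1 to 4 and at 1.17, 48.2, 5.27 and 314 CPM in control 1 to 4. KLK8 (ENSG00000129455.16), also called neuropsin, stood at 55.4, 1.86, 78.0 and 19.1 CPM in knockdown and 0.0544, 22.6, 1.52 and 26.9 CPM in control, where control 1 held 2 counts. KLK13 (ENSG00000167759.13), a kallikrein of oral and oesophageal epithelium, stood at 115, 3.58, 155 and 201 CPM in knockdown and at 0, 62.4, 14.4 and 113 CPM in control. These 3 genes were high in knockdown 1, 3 and 4 and in control 2 and 4, and low in knockdown 2 and in control 1 and 3. KLK13 had 0 counts in control 1, which allows up to 0.0816 CPM (3 counts, counting error only).

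KLK6 (ENSG00000167755.15), a trypsin-like protease also abundant in the nervous system, was concentrated in fewer libraries. It stood at 158, 5.08, 39.8 and 6.69 CPM in knockdown 1 to 4 and at 0.408, 4.50, 0.0930 and 8.13 CPM in control 1 to 4. Knockdown 1 and knockdown 3 were above the other 6 libraries, and knockdown 2 and knockdown 4 lay within the range of the controls. Control 3 held 3 counts (exact Poisson 95% interval 0.0192 to 0.272 CPM, counting error only).

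KLK11 and KLK12 were the members whose 4 knockdown libraries lay closest together. KLK11 (ENSG00000167757.14), a trypsin-like kallikrein found in squamous and glandular tissue, stood at 127, 141, 168 and 151 CPM in knockdown and at 0.734, 55.5, 12.5 and 157 CPM in control. KLK12 (ENSG00000186474.16), also trypsin-like, stood at 32.4, 44.9, 33.3 and 52.4 CPM in knockdown and at 0.0272, 27.3, 0.124 and 1.36 CPM in control. The KLK12 groups did not overlap, with knockdown at 40.7 ± 9.65 CPM and control at 7.20 ± 13.4 CPM (SD, n = 4 each), the only such case among the 10 genes. Over all 21192 tested genes, 0.882% had groups that did not overlap with knockdown higher and 1.47% with knockdown lower. Control 4 lay among the knockdown libraries in KLK10 (314 CPM) and KLK11 (157 CPM) but below all of them in KLK12 (1.36 CPM).

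**Figure D1:**
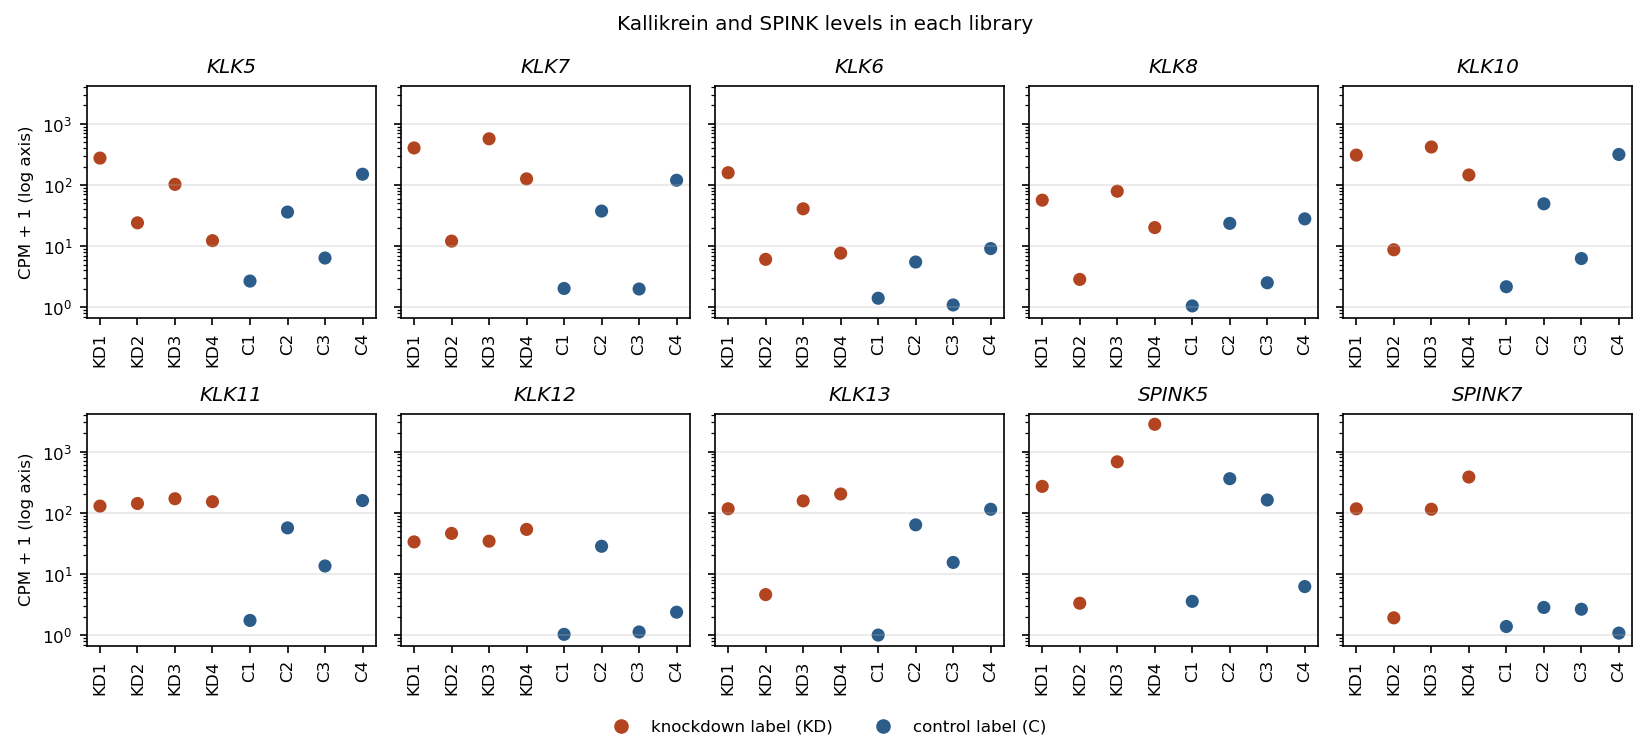
CPM + 1 on a log axis for each of the 10 genes in each library, with knockdown labels in red-brown (KD1 to KD4) and control labels in blue (C1 to C4), 1 point per library and no replicates behind a point. KLK11 and KLK12 stay level across the 4 knockdown libraries (127 to 168 and 32.4 to 52.4 CPM), while KLK7, KLK8 and KLK10 are low in KD2, C1 and C3.

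SPINK5 (ENSG00000133710.17) encodes the inhibitor LEKTI. It stood at 269, 2.31, 679 and 2790 CPM in knockdown 1 to 4 and at 2.56, 359, 161 and 5.21 CPM in control 1 to 4. Its lowest library and its highest were both labelled knockdown. SPINK7 (ENSG00000145879.11) stood at 115, 0.913, 113 and 382 CPM in knockdown and at 0.381, 1.83, 1.64 and 0.0769 CPM in control. Knockdown 1, 3 and 4 were above every control, but knockdown 2 lay inside the control range, and control 4 held 4 counts (exact Poisson 95% interval 0.0210 to 0.197 CPM). Both inhibitors were highest in knockdown 4. The ratio of SPINK5 to SPINK7 counts was 2.34, 2.54, 6.01 and 7.30 in knockdown 1 to 4 but 6.71, 196, 97.7 and 67.8 in control 1 to 4, so control 2, 3 and 4 held little SPINK7 for their SPINK5.

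Proteases and inhibitor did not keep a fixed proportion. The 8 kallikreins summed to 1471, 238, 1560 and 711 CPM in knockdown 1 to 4 and to 5.11, 292, 40.3 and 888 CPM in control 1 to 4. Per count of SPINK5 there were 5.48, 103, 2.30 and 0.255 kallikrein counts in knockdown 1 to 4. In control 1 to 4 there were 2.00, 0.813, 0.251 and 171. Knockdown 4 and control 4 held similar kallikrein sums yet lay at opposite ends of this ratio, with 101792 and 271 counts of SPINK5. For KLK5 alone the ratio to SPINK5 was 0.00405 in knockdown 4 and 28.6 in control 4. These are ratios of raw counts within a library, with no correction for gene length, and they are compared only between libraries.

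**Figure D2:**
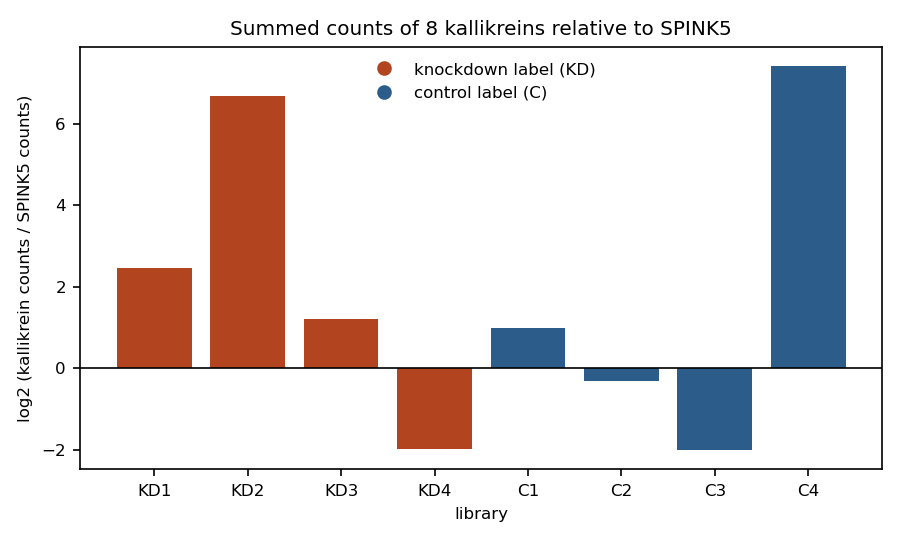
Log2 ratio of the summed counts of the 8 kallikreins to SPINK5 counts, 1 bar per library, red-brown for knockdown labels (KD1 to KD4) and blue for control labels (C1 to C4). The bars run from -2.0 in C3 and -1.97 in KD4 to 6.68 in KD2 and 7.41 in C4, and neither label is on 1 side of 0.

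Counts were also set against KRT5, which marks basal cells of squamous epithelium and is also found in basal and myoepithelial cells of glands. KLK10 ran from 0.904 to 36.2 counts per 1000 KRT5 counts over the 8 libraries. KLK11 stood at 513 per 1000 in knockdown 2, against 2.14 to 25.7 in the other 7, and KLK12 at 164 in knockdown 2, against 0.0213 to 8.96. KLK5 and KLK6 were also highest in knockdown 2 on this scale, at 84.2 and 18.5 per 1000, though their CPM there were 23.1 and 5.08. KRT5, the divisor, held 8412 counts in knockdown 2. For KLK12 the lowest knockdown library (1.64) and the highest control (1.62) were nearly equal on this scale. The share of all genes whose groups do not overlap was not computed on it. In knockdown 2 KLK1, the tissue kallikrein of salivary ducts, stood at 196.5 per 1000, against 1.50 or less elsewhere. Control 1, the other library rich in salivary markers, had 6.74 per 1000 for KLK11 and 0.25 for KLK12, which rests on 1 count. The salivary genes of these 2 libraries differed too, with the gel-forming mucin MUC5B at 60240 CPM in knockdown 2 and 3948 CPM in control 1, and LCN1, a lipocalin of tear and lingual glands, at 0.391 and 66020 CPM. SPINK5 stood at 477 per 1000 KRT5 counts in knockdown 4 and 0.367 in control 4, with the other 6 between 8.44 and 59.0.

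**Figure D3:**
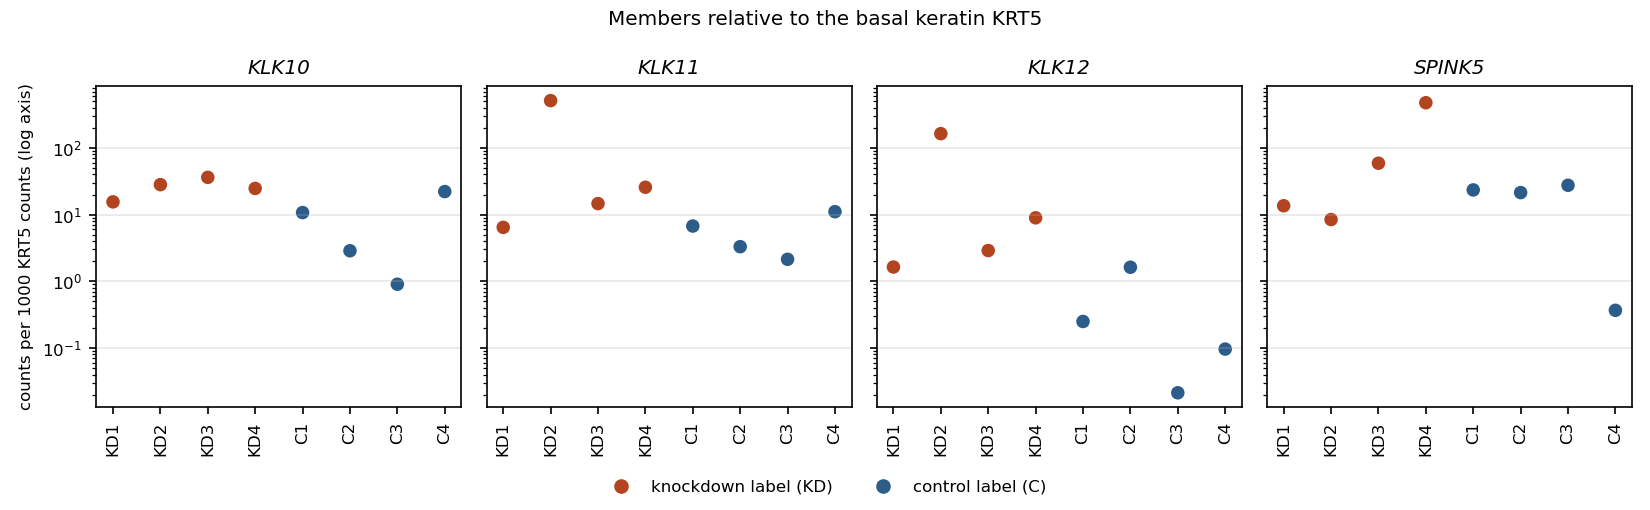
Counts of KLK10, KLK11, KLK12 and SPINK5 per 1000 KRT5 counts on a log axis, 1 point per library, red-brown for knockdown labels (KD1 to KD4) and blue for control labels (C1 to C4). KLK11 and KLK12 are far higher in KD2 (513 and 164) than in any other library, and SPINK5 is highest in KD4 (477) and lowest in C4 (0.367).

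The likeness of 2 genes was measured as the root mean square difference of their log2(CPM + 1) values over the 8 libraries, each gene centred on its own mean, so that 0 means the same pattern. KLK7 and KLK10 were the closest pair at 0.77, followed by KLK8 and KLK10 at 0.85. KLK5 and KLK6 were each other's nearest member at 1.10. KLK11 and KLK12 were farther from the rest, at 1.47 (from KLK5) and 1.62 (from KLK11) from their nearest members. SPINK5 was nearest to SPINK7 at 2.11 and farthest from KLK5 at 3.78, the largest difference of any pair. Among 14550 genes with a mean log2(CPM + 1) of at least 1, the 5 nearest to KLK7 were KLK10 (0.77), the lipid transporter ABCA12 (0.86), the keratin KRT80 (0.92), the retinol dehydrogenase RDH12 (1.04) and the gasdermin GSDMA (1.05). Nearest to KLK5 were MAL2 (0.89), ALDH3B2 (0.94), the retinoic acid binding protein CRABP2 (0.95), B4GALNT3 (0.96) and RNASE10 (0.99). For SPINK5 they were the interleukin-1 receptor antagonist IL1RN (0.99), the calprotectin subunit S100A8 (1.15), sciellin (SCEL, 1.16), ENDOU (1.24) and the other calprotectin subunit S100A9 (1.34). No other member was among the 5 nearest genes of KLK5 or of SPINK5. All of these genes share the same 8 libraries and their make-up.

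Levels of different genes were compared only per length, as CPM per kilobase of coding sequence. By the mean over the 8 libraries the order was SPINK7 (291 ± 506, SD, n = 8), KLK7 (208 ± 280), KLK10 (188 ± 202), SPINK5 (162 ± 286), KLK11 (110 ± 73.8), KLK13 (96.3 ± 87.0), KLK5 (85.5 ± 109), KLK6 (38.0 ± 73.9), KLK12 (30 ± 26.2) and KLK8 (28.1 ± 30.6). The order depended on the length used. Per kilobase of exons, a choice added later, SPINK5 (142) came ahead of SPINK7 (132), and KLK10 moved from rank 3 to rank 7. Only 1 of the 10 genes kept its rank. By coding length, the first place of SPINK7 rested on knockdown 4, at 1448 CPM per kilobase. Without that library, a choice made after seeing the data, its mean was 126, behind KLK7 at 214 and KLK10 at 190, and SPINK5 stood at 64.1. SPINK7 also had the lowest median of the 10 genes (6.58, against 145 for KLK11), and it was above KLK7 in 3 of 8 libraries. Of the 9 neighbouring pairs, only KLK5 and KLK6 differed by more than the spread of their difference, by 1.72 ± 1.20 on the log2(CPM per kilobase + 1) scale (SD, n = 8) with KLK5 higher in 8 of 8 libraries. The leading kallikrein per kilobase changed with the library. It was KLK7 in knockdown 1 and 3, KLK11 in knockdown 2, KLK13 in knockdown 4 and in control 2 and 3, KLK5 in control 1 and KLK10 in control 4.

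Between the labels, all 10 genes had a higher fitted value in knockdown, with a median log2 fold change of 2.37 against -0.05 over all tested genes, of which 46.8% were fitted higher. Markers of some other cell types were fitted lower in knockdown, with 0 called by edgeR. These were 10 of 10 for fibroblasts (median -1.89, 5 at an unadjusted p under 0.05), 5 of 5 for adipocytes (-1.83) and 12 of 12 for skeletal muscle (-1.91). No muscle marker stood at an unadjusted p under 0.05. Salivary gland markers did not share this direction, with 4 of the 6 tested of 14 fitted higher (median 2.54). Endothelial markers split into 3 higher and 3 lower (-0.06), and leukocyte markers into 4 higher and 5 lower (-0.01). The summed fibroblast markers ran from 271 to 810 CPM in knockdown and from 768 to 7896 CPM in control. Summed adipocyte markers ran from 11.1 to 66.5 CPM in knockdown and from 28.9 to 242 CPM in control. For muscle markers the sums were 40.3 to 46730 CPM in knockdown and 30.4 to 147100 CPM in control. For salivary markers they were 6.38 to 98480 CPM in knockdown and 1.38 to 86090 CPM in control. The part of these cell types in the members' values was not tested. None of the 10 passed edgeR's quasi-likelihood test (Benjamini-Hochberg adjusted p = 0.981 for each), as 0% of all genes did. At an unadjusted p under 0.05 stood 2 of the 10, KLK6 and SPINK7, both fitted higher, against 4.78% of all genes in either direction and 2.9% fitted higher. DESeq2 called 1 of the 9 it tested, SPINK7, and 0.612% of all genes; it gave KLK12 no p-value. limma-voom called 0 of 10, as it did of all genes.

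The log2 fold changes of KLK6 and KLK7 were 4.35 (SE 1.59) and 3.23 (SE 1.66). KLK12 stood at 2.72 (SE 1.56) and KLK8 at 2.01 (SE 1.52). The order of the kallikreins depended on the fit, KLK12 being at 5.67 by limma-voom and 6.39 with a replicate block, above KLK6 at 4.31 and 4.29. KLK10, KLK11, KLK13 and KLK5 stood at 1.64, 1.63, 1.63 and 1.47, with standard errors of 1.58, 1.11, 1.63 and 1.39. For the inhibitors the values were 7.51 (SE 1.69) for SPINK7 and 3.05 (SE 1.86) for SPINK5. DESeq2 gave SPINK7 a log2 fold change of 7.52 (SE 1.24, DESeq2 adjusted p = 4.13e-06). With 1 library left out, KLK5 ran from 0.31 (without knockdown 1) to 3.26 (without control 4), KLK10 from 0.98 (without knockdown 3) to 4.00 (without control 4), and KLK12 from 2.30 (without control 1) to 6.47 (without control 2). KLK6 ran from 2.79 without knockdown 1, where KLK7 was 3.01, to 5.32 without control 4. KLK11 ran from 1.22 without control 1 to 2.95 without control 4. SPINK5 ran from 1.84 without knockdown 4 to 4.36 without control 2. Without the 4 libraries rich in muscle or salivary markers, which leaves 2 against 2, SPINK7 stood at 7.38 (SE 1.40, edgeR adjusted p = 0.289), KLK6 at 4.36 (SE 0.763, edgeR adjusted p = 0.246), KLK12 at 1.69 and SPINK5 at 1.92. In the fit of all 8 libraries, squamous suprabasal markers were also fitted higher in knockdown. This held for all 11 tested of 12 (median 4.13, 6 at an unadjusted p under 0.05, 0 called by edgeR). DESeq2 called 3 of them, KRT1, KRT10 and CNFN. Their summed level ran from 66.7 to 81300 CPM in knockdown and from 43.1 to 10300 CPM in control. For 6 basal squamous markers the median was 0.26. The part of differentiated squamous cells in the members' values was not tested.

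**Figure D4:**
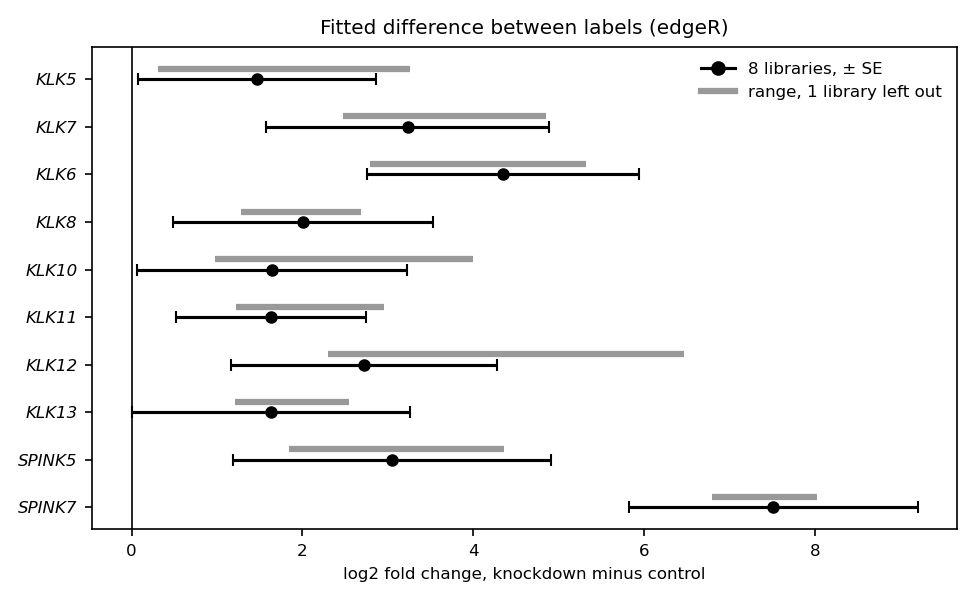
Log2 fold change of knockdown over control for each of the 10 genes by edgeR, with points and bars for the fit of 8 libraries ± SE and grey bars for the range over the 8 fits that each leave out 1 library. All points lie above 0, from 1.47 for KLK5 to 7.51 for SPINK7, and the grey bars of KLK5 (0.31 to 3.26) and KLK12 (2.30 to 6.47) are wide.

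Of the 7 other kallikreins, 2 passed the filter on low counts and 0 passed the edgeR test in either direction. KLK14, a strong activator of other kallikreins, stood at 19.4, 1.27, 50.2 and 9.84 CPM in knockdown 1 to 4 and at 0.0816, 1.52, 0.186 and 1.61 CPM in control 1 to 4. Its log2 fold change was 4.98 (SE 1.37, edgeR adjusted p = 0.981), and DESeq2 called it (5.04, DESeq2 adjusted p = 0.00487). KLK1 stood at 53.9 CPM in knockdown 2 and between 0.163 and 7.86 CPM in the other 7 libraries. KLK2, KLK3, KLK4, KLK9 and KLK15, among them the prostate kallikreins, stayed at or below 0.587 CPM in all 8 libraries. Of the 8 other SPINK genes 1 was tested, SPINK6, an inhibitor made in skin, which stood at 79.7 CPM in knockdown 3 and 2.14 CPM or less elsewhere. SPINK8 reached 9.45 CPM in knockdown 2 and 1.32 CPM or less elsewhere.

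Among 11 other inhibitors of epithelial proteases, 9 were fitted higher and 2 lower in knockdown (median 1.06), and edgeR called 0. A2ML1, a broad protease inhibitor of the epidermis, stood at 2167, 1.79, 817 and 4901 CPM in knockdown 1 to 4 and at 2.12, 834, 479 and 105 CPM in control 1 to 4. Like SPINK5, it was highest in knockdown 4 and lowest in knockdown 2. SLPI, a secreted leukocyte protease inhibitor of mucosa and glands, was highest in knockdown 2 (2122 CPM) and control 1 (1140 CPM), the libraries with the most salivary markers. DESeq2 called 1 of the 11, PI3 (elafin), at a log2 fold change of 6.58 (DESeq2 adjusted p = 0.00075).

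Of 16 other epithelial serine proteases 15 were tested, with 11 fitted higher, 4 lower and 0 called (median 1.12). ST14, or matriptase, which can activate kallikrein precursors, ran only from 87.4 to 511 CPM over the 8 libraries (log2 fold change -0.10, SE 0.691). TMPRSS11D, an airway and oral trypsin-like protease, ran from 0.163 to 297 CPM. Of the 7 substrates and receptor genes 5 were tested, with 4 fitted higher, 1 lower and 0 called by edgeR (median 2.04). The desmosomal cadherin DSG1, cut by KLK5, stood at 2962, 7.95, 4435 and 1152 CPM in knockdown and at 0.870, 121, 86.9 and 433 CPM in control. DSC1, cut by KLK5 and KLK7, stood at 319, 0.130, 475 and 19.5 CPM in knockdown and at 0.136, 4.60, 11 and 9.15 CPM in control, and DESeq2 called it (DESeq2 adjusted p = 0.0423). Both were highest in knockdown 3 and 1, the libraries where KLK7 was highest.

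Several members overlap other annotated genes, and the strand setting of the counting is not given in the sources used here. SPINK7 overlaps AC091948.1, an antisense gene with 57 to 389 counts per library, at most 10.7 CPM in knockdown 4. Whether reads of the 2 were kept apart is not known here. The antisense genes over KLK5, KLK6, KLK7, KLK8, KLK10 and KLK12 stayed at or below 1.70 CPM. KLK8 shares its strand with the annotated gene AC011473.4, which held 0 counts in every library. How shared reads were assigned is not given in the sources used here, so KLK8 counts are uncertain. The same holds for KLK6, which shares its strand with AC011483.3, a gene of 0 to 55 counts per library and at most 0.914 CPM.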

How the data were processed

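RNA of 8 libraries was measured by sequencing. The authors deposited whole-number read counts per gene, not normalised. STAR, featureCounts from Subread and hg38 were used, per the submitters' processing notes; their versions, the annotation and how strand was set are not known here. By label the molecule was polyA RNA, while the extraction protocol describes depletion of ribosomal RNA. Columns, which say knockout where titles say knockdown, were matched to titles by group and number.

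Symbols were matched to 62666 of 63241 rows by Ensembl identifier without version. CPM were computed from column totals. Knockdown and control were compared over 21192 genes kept by filterByExpr with edgeR 4.0.16 (quasi-likelihood, TMM) under R 4.3.3. The SE given with an edgeR fold change is its absolute value divided by the square root of the test's F statistic. It is not a standard error reported by the fit. The threshold was a p of 0.05 after Benjamini-Hochberg adjustment. Coding and exon lengths and overlaps came from GENCODE 29 (GRCh38), whose release may differ from the authors'. Total counts of at least 30684584 per library put 3 counts at 0.0978 CPM or less.

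The members, lists and tests were chosen with earlier results of these data known. The rule named all 10 members, the called genes of each of 5 pathway lists or else its 2 of highest mean CPM, and the 5 nearest profiles of KLK5, KLK7 and SPINK5. Alternatives were DESeq2 1.42.0, limma-voom (limma 3.58.1), other scalings and filters, a replicate block and leaving out each library.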

Additional observations from a re-analysis of the deposited data

Results flagged for a closer look

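Each gene's 4 values per label were checked for a value far from the other 3, by the gap to its nearest neighbour as a share of the range (Dixon's 95% criterion). Of 20 such groups 2 stood out. The criterion flags about 1 in 20 groups of independent, normally distributed values. These groups share the same 8 libraries, and their CPM span wide ranges, so that rate need not hold here. KLK10 in control 4 was 314 CPM against 1.17 to 48.2 CPM in the other controls. KLK12 in control 2 was 27.3 CPM against 0.0272 to 1.36 CPM in the other controls. Whether tissue make-up has a part in these values was not tested.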

How the results depend on the processing

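Over the 160 alternative values of the 10 genes' fold changes, all kept the direction and 159 stayed uncalled, the exception being SPINK7 by DESeq2. These are refits of the same genes on the same libraries, not independent checks. The share of all genes that kept their direction was not computed. DESeq2 called 127 genes and 1 of the 10 members, where edgeR called 0 of each. With 1 library left out edgeR called from 0 to 1 genes, the 1 being SPRR2F without knockdown 2 (named after its values were seen), and 0 of the members in all 8 fits. COL1A1 ran from -3.38 (without control 1) to -0.48 (without control 2). Without the 4 libraries rich in muscle or salivary markers, a choice made after seeing the data, edgeR called 0 genes. At an unadjusted p under 0.05 stood 1013 genes in the fit of all libraries. Same-numbered libraries of the labels did not deviate together (correlations of -0.69 to -0.36). No pairing by number was seen, but the check cannot exclude one, because the libraries differ widely in muscle and gland markers. With a replicate block edgeR called 0 genes and 0 members, with COL1A1 at -1.24. Scaling by library totals moved the median of all genes from -0.05 to -0.21 and that of the members from 2.37 to 2.05. With a pseudocount of 0.1, 1 of the 5 nearest genes was kept for KLK5, 4 for KLK7 and 3 for SPINK5. Ranking by CPM without length kept 4 of 10 ranks, and exon length, added later, kept 1. Adding 0.5 counts moved no kallikrein to SPINK5 ratio by 0.1 on the log2 scale.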
